A study of Mus musculus with 2 samples.

Results

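The mitochondrial ribosomal protein genes were examined in RNA-seq profiles of fibro-adipogenic progenitors (FAPs), mesenchymal cells of mouse skeletal muscle that can become adipocytes. The genes were taken by name, as every entry called Mrpl or Mrps followed by a number and at most 1 letter, with entries marked -ps, which are pseudogenes, left out. This gave 78 of the 44291 genes in the files, 49 named Mrpl for the large subunit and 29 named Mrps for the small subunit.

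Both cultures were primary wild-type FAPs, which the study sorted from hind limb muscle of C57BL/6 mice by flow cytometry. One was treated with platelet-rich plasma (PRP), a platelet concentrate of blood plasma, and the other with vehicle as control. The study prepared its PRP from blood of human donors, so human material was put on mouse cells. Both were placed in a medium that drives adipogenesis, which held insulin at 10 µg/ml, dexamethasone at 0.25 µM and IBMX at 0.5 mM in DMEM and 20% FBS. There was 1 library for each treatment, so 2 in all, and whether a culture pooled several animals is not given in the labels. The labels call the treatment PRP, whereas the study's text speaks of exosomes from the PRP of young donors. The comparison asks how the treatment moved gene expression of FAPs under adipogenic induction, and with 1 library on each side no test of it can be made.

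Mitochondria hold their own ribosome, the mitoribosome, which makes only proteins encoded by mitochondrial DNA, nearly all of them core subunits of the respiratory chain and the ATP synthase. Its rRNAs are transcribed from mitochondrial DNA, while its proteins are encoded in the nucleus, made in the cytosol and imported. Some of these proteins descend from bacterial ribosomal proteins and others were added in the mitochondrial line. Adipocyte differentiation is known to come with growth of the mitochondrial compartment.

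Per the recovered read totals, 40120843 (PRP) and 34139741 (control) reads were assigned to genes. Values are FPKM, reads scaled to exon length in kilobases and to the assigned reads of the library. The log2 fold change is the difference of log2(FPKM + 1), PRP less control, so that values above 0 are higher in the PRP library, and the added 1 understates the change of low genes. All 13401 genes whose FPKM averaged at least 1 serve as the background, and all 78 members were among them. Ratios of FPKM carry an exact Clopper-Pearson 95% interval on read pairs, which covers counting error only and compares these libraries, not the treatments. The 8 FAP markers were all lower in the PRP library, with a summed FPKM of 324.8 against 520.0. They included Pdgfra, which encodes the receptor used to define FAPs (19.8 against 28.0 FPKM), and Dpt (18.8 against 50.2). The satellite cell and muscle genes Pax7 and Myog were at 0 in both libraries, as were Gp9 and Ppbp of platelets. Myf5 was not analysed here, and the remaining muscle markers summed to 3.58 against 4.58 FPKM. The macrophage markers summed to 10.9 against 10.8 FPKM, but Cd68 was higher at 4.56 against 2.31 (ratio 1.98, 1.41 to 2.82) and Lyz2 lower at 4.91 against 7.57 (0.648, 0.512 to 0.820), while Ptprc, which marks all leukocytes, was at 0.0109 against 0.0192. The endothelial markers summed to 9.45 against 5.38, mostly from Kdr at 4.23 against 1.5 and Tek at 4.73 against 3.56. Pecam1 was at 0.188 against 0.0470, on 47 and 10 reads. Emcn at 0.203 against 0.173 and Cdh5 at 0.0949 against 0.0976 were within counting error. The platelet and erythroid markers summed to 0.762 against 0.730 FPKM. Among them Itga2b was higher at 0.567 against 0.365 (ratio 1.55, 1.005 to 2.43). Hba-a1 was lower at 0.0614 against 0.289, on 2 and 8 reads and within counting error. These are mouse genes, so their values, with Gp9 and Ppbp at 0, do not measure human platelet material from the PRP. The part of these differences in the values below was not tested, and in bulk samples fewer cells of a type and less RNA per cell cannot be told apart.

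The start regions of the members were searched first, because many mitochondrial genes of the nucleus carry sites for the same few factors there. NRF1, GABP (an ETS family factor) and YY1 are known regulators of such genes, and MYC binds E-boxes. RefSeq windows on GRCm38.p6, from 250 bases before to 50 bases after the start, were found for 69 of the 78 members. The other 9 were Mrpl38, Mrpl15, Mrpl13, Mrps28, Mrps35, Mrps34, Mrpl19, Mrpl4 and Mrpl54. Each motif was searched as exact letters on both strands, and no motif searched can lie within another. The NRF1 core GCATGCGC was in 8 of the 69 members (11.6%), against 3.05% of all 27025 genes with a window and 6.34% of the 8655 of them that were in the tested set. The ETS core CCGGAAG was in 26 members (37.7%, against 9.93% of all and 21.5% of tested genes). The YY1 core ATGGCGG was in 13 (18.8%, against 4.69% and 10.1%). The E-box CACGTG was in 5 (7.25%, against 8.09% and 12.1%). At least 1 of the NRF1, ETS and YY1 cores was in 37 members (53.6%), against 15.8% of all genes. The share among tested genes, which was above that of all genes for each single core, was not computed for this combination. The windows of the members held a median of 21 CG dinucleotides, the same as in tested genes and above the 7 of all genes. A match of letters is a description of the window and not a bound site.

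The 8 stretches with the NRF1 core are shown, with the core in capitals and 10 bases on either side, because this motif is the longest of those searched and had the lowest share over all genes. They are printed 5′ to 3′ on the strand of the gene, in the order of the genes' fold change from the highest down. Where the core was present on both strands only its first match is capitalised.
Mrps18b: acggcccgacGCATGCGCactgggagca
Mrpl39: aaggagaggcGCGCATGCgcccccgcgt
Mrpl22: gcctcggactGCGCATGCgtatagtcag
Mrpl9: aggcgcagctGCGCATGCgcggggtcct
Mrpl33: accggaacccGCGCATGCcccggaagta
Mrpl32: tttgacccttGCGCATGCgcaagagggg
Mrpl10: ccagctccacGCATGCGCatagcggccc
Mrpl17: ccgagttactGCGCATGCgtcctctgag
The stretches lie at chr17:35916646-35916673 on the minus strand for Mrps18b, chr16:84735352-84735379 on the minus strand for Mrpl39, chr11:58171621-58171648 on the plus strand for Mrpl22 and chr3:94443298-94443325 on the plus strand for Mrpl9. Those of the remaining genes lie at chr5:31613929-31613956 on the plus strand for Mrpl33, chr13:14613107-14613134 on the minus strand for Mrpl32, chr11:97041438-97041465 on the plus strand for Mrpl10 and chr7:105811081-105811108 on the minus strand for Mrpl17. These stretches were not screened for exons, and GENCODE M21 gene starts differ from the RefSeq starts. By M21 the stretches of Mrpl39, Mrpl33 and Mrpl32 lie within the gene itself, and those of Mrpl9 and Mrpl17 span its start. That of Mrps18b lies past the start of its opposite-strand neighbour Ppp1r10, 45 bases from the start of Mrps18b. The first base of the core lay 223 bases before the RefSeq start in Mrps18b, 125 before it in Mrpl39, 33 in Mrpl22, 28 in Mrpl9, 12 in Mrpl33, 87 in Mrpl32, 134 in Mrpl10 and 11 in Mrpl17. Of these 8 genes, 7 had a log2 fold change above 0 and Mrpl17 one below 0, with a median log2 fold change of 0.17, against 0.10 for the 61 members without the core. For the ETS core the medians were 0.10 with and 0.12 without it, for the YY1 core 0.17 and 0.11, and for the E-box 0.12 and 0.12. No test was made of these differences.

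The ETS core and the E-box are shown in longer upstream sequence, the 150 bases before the RefSeq start. Among 66 members with a single window, 16 had no GENCODE M21 exon of any gene in these bases, and the 5 of those that held a motif are printed with the motif in capitals.
Mrps22: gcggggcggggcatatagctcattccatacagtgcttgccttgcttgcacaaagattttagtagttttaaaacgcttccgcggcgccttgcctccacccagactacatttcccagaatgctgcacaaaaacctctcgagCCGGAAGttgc
Mrpl34: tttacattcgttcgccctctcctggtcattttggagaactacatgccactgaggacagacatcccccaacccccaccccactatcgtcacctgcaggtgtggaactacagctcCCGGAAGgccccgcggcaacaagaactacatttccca
Mrpl20: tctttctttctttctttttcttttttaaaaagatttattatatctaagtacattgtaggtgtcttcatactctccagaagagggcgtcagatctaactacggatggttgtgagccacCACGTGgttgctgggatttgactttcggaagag
Mrpl52: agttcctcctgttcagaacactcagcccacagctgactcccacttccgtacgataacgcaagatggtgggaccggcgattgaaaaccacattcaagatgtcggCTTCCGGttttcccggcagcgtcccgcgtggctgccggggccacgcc
Mrpl58: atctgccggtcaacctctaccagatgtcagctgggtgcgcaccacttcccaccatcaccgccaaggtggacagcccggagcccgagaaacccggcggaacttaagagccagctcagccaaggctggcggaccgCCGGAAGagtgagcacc
They lie at chr9:98601680-98601829 on the minus strand for Mrps22, chr8:71464776-71464925 on the plus strand for Mrpl34, chr4:155802728-155802877 on the plus strand for Mrpl20, chr14:54426759-54426908 on the plus strand for Mrpl52 and chr11:115403602-115403751 on the plus strand for Mrpl58. The capitals mark the ETS core, read on the opposite strand in Mrpl52, except in Mrpl20, where they mark the E-box. Among these 5 genes Mrps22 was higher in the PRP library and Mrpl58 lower beyond counting error, and Mrpl34, Mrpl20 and Mrpl52 were within it.

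As a group the mitoribosome genes were slightly higher in the PRP library. Their median log2 fold change was 0.11, with quartiles at -0.02 and 0.22, beside a median of 0.01 and quartiles of -0.19 and 0.21 over all genes tested. Of the 78 members 56 were higher (71.8%), against 50.9% of all genes tested, and 22 were lower, against 49.1%. The members' values ranged from -0.45 to 0.54. Their summed FPKM was 1015 with PRP and 936.3 in the control, and they took 0.232% and 0.210% of the assigned reads. Pooled over the members, reads scaled to the library totals stood at a ratio of 1.10 (95% interval 1.09 to 1.12). Mrpl39 alone held 7.90% (PRP) and 6.18% (control) of these reads, and without it the ratio was 1.08 (1.07 to 1.10).

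**Figure D1:**
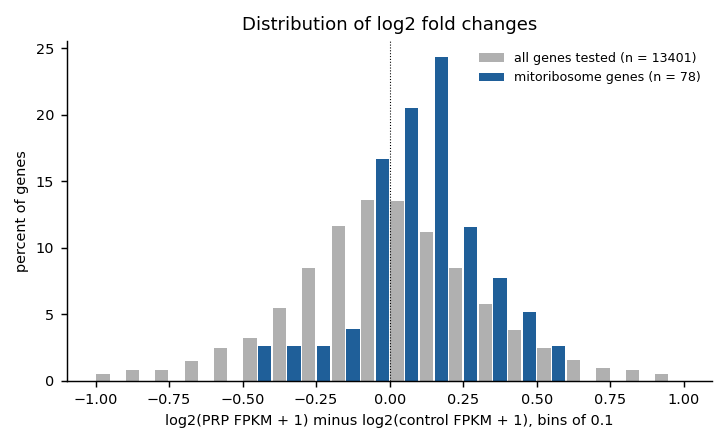
Share of genes in bins of 0.1 of the log2 fold change (x axis), in percent (y axis), for all 13401 genes tested in grey and the 78 mitoribosome genes in blue. The members sit to the right of 0 more often than all genes do (71.8% against 50.9%) and none lies beyond -0.45 or 0.54, while 2.83% of all genes lie outside the plotted range.

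The shift was one of many small differences. A log2 fold change of at least 0.32 was reached by 12 members upward (15.4%, against 16.2% of all genes tested) and by 4 members downward (5.13%, against 14.1%). Between these limits lay 79.5% of the members and 69.7% of all genes. The counting interval lay above no change for 25 members (32.1%, against 26.1% of the 12369 tested genes with whole reads) and below it for 6 (7.69%, against 26.1%). The remaining 47 were within counting error, 31 of them with a value above 0 and 16 below. All 16 members past 0.32 had intervals that left out no change. Set against the background, few members were lower, while the share past 0.32 upward was close to that of all genes. None reached a fold of 1.5 in either direction on the log2(FPKM + 1) scale.

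**Figure D2:**
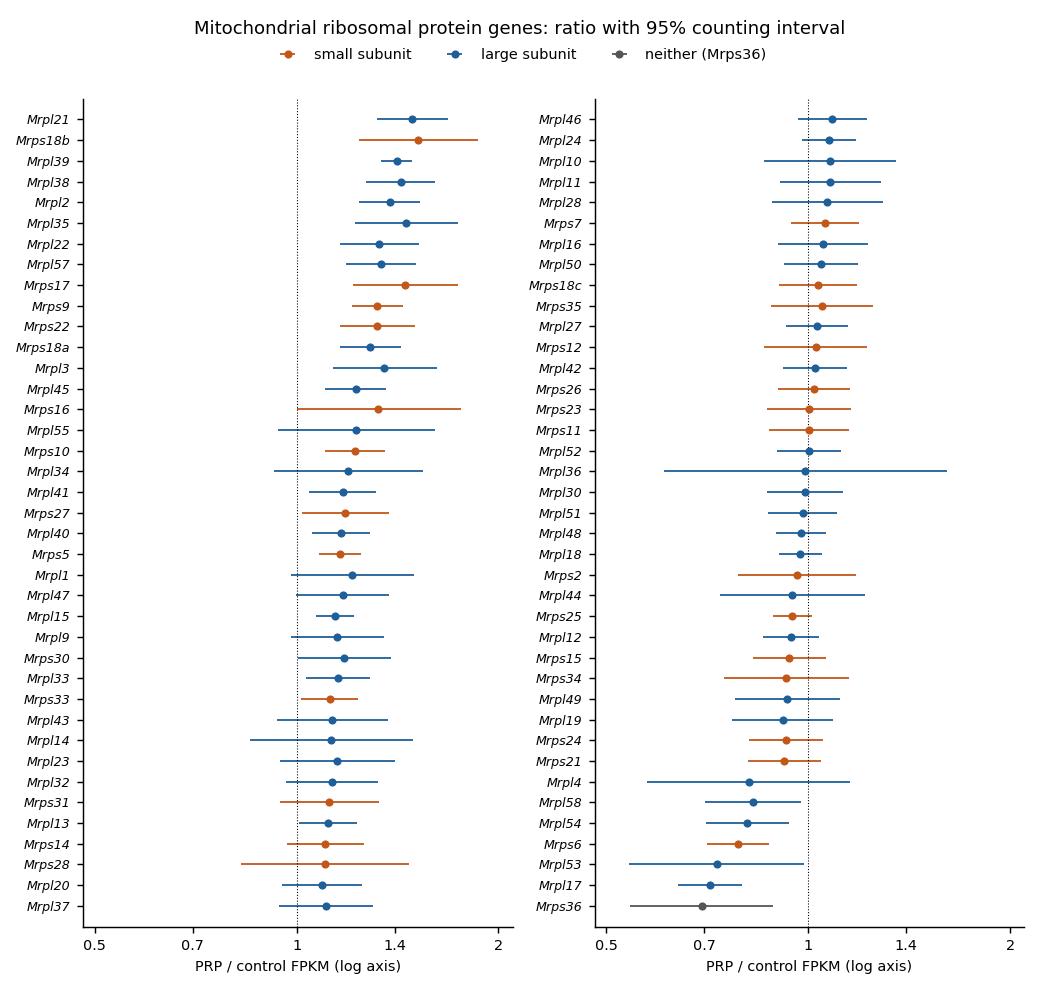
Ratio of PRP to control FPKM (log axis) for each of the 78 genes, ordered by log2 fold change, with the 95% counting interval as a bar. Small subunit genes are orange, large subunit genes blue and Mrps36 grey, and the dotted line marks no difference. The order runs from Mrpl21 (1.49) at the top left to Mrps36 (0.693) at the bottom right.

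By structure, 26 members belong to the small subunit, which reads the mRNA, and 51 to the large subunit, which forms peptide bonds. The latter include Mrps18a and Mrps30, which sit in the large subunit despite their names. Mrps36 belongs to neither and is known as a part of the 2-oxoglutarate dehydrogenase complex. The median log2 fold change was 0.06 for the small subunit, with 19 genes higher and 7 lower, and 0.12 for the large subunit, with 37 higher and 14 lower. Pooled reads stood at a ratio of 1.07 (1.05 to 1.10) for the small and 1.12 (1.10 to 1.14) for the large subunit. The shares of genes above 0 were close, 73.1% and 72.5%, and 15.4% and 15.7% were past 0.32 upward. The 45 proteins that take the place of a bacterial ribosomal protein and the other 32 had medians of 0.12 and 0.11. Mrps18a and Mrps18b were counted among the latter, since of the S18 relatives only Mrps18c was taken to hold the bacterial place.

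Mrpl21 (ENSMUSG00000024829, chromosome 19, 3282901 to 3292837 on mm10), a large subunit protein of the bacterial L21 family, had 18.2 FPKM with PRP and 12.2 in the control. This was the highest log2 fold change of the group, 0.54, at a ratio of 1.49 (1.32 to 1.68). Mrps18b (chromosome 17, 35910379 to 35916389), 1 of 3 relatives of bacterial S18, had 6.41 against 4.22 FPKM, and its ratio of 1.52 was the highest of the group although its interval was wide (1.24 to 1.87). Mrpl39 (chromosome 16, 84717576 to 84735742), which resembles part of threonyl-tRNA synthetase, had 72.2 against 51.2 FPKM. Its ratio of 1.41 had a narrow interval (1.34 to 1.49), since it rested on 7336 and 4426 reads, the most of any member. Mrpl38, a protein of the central protuberance of the large subunit, had 14.9 against 10.4 FPKM (ratio 1.43, 1.27 to 1.61).

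Mrpl2, which lies near the site of peptide bond formation, had 39.8 against 28.9 FPKM (ratio 1.38, 1.24 to 1.53). Mrpl35 had 4.19 against 2.88 FPKM (1.46, 1.22 to 1.74), and Mrpl57 had 11.8 against 8.81 (1.34, 1.18 to 1.51). Mrpl22, whose bacterial counterpart lines the peptide exit tunnel, had 27.5 against 20.7 FPKM (1.33, 1.16 to 1.53). All of these belong to the large subunit, and their levels differ widely, so the members past 0.32 were not limited to the abundant genes. Of the small subunit, Mrps17 had 2.58 against 1.78 FPKM (1.45, 1.21 to 1.74), Mrps9 had 11.2 against 8.52 (1.32, 1.21 to 1.44) and Mrps22 had 7.69 against 5.83 (1.32, 1.16 to 1.5). Mrps18a of the large subunit completed the 12 with 12.1 against 9.41 FPKM (1.29, 1.16 to 1.43).

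A further 13 members were higher beyond counting error without reaching 0.32. Their ratios ran from 1.11 for Mrpl13 (5.68 against 5.10 FPKM) to 1.35 for Mrpl3 (2.44 against 1.81 FPKM). Those of the small subunit were Mrps5, Mrps10, Mrps16, Mrps27 and Mrps33, and those of the large subunit were Mrpl3, Mrpl13, Mrpl15, Mrpl33, Mrpl40, Mrpl41, Mrpl45 and Mrps30. The interval of Mrps16 only just cleared no change, with a low bound of 1.001. At the other end of precision Mrpl36, with 79 and 68 reads, had 1.70 against 1.72 FPKM and an interval from 0.609 to 1.61, so that a difference of the size of Mrpl21 was not detectable for it at this depth.

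The 6 genes lower beyond counting error were a mixed set. Mrps36 (chromosome 13, 100735955 to 100744659), which is not a ribosomal protein by function, had the lowest value, 4.81 against 6.94 FPKM (ratio 0.693, 0.542 to 0.885). Mrpl17 (chromosome 7, 105803206 to 105811099), a protein at the rim of the peptide exit, had 3.99 against 5.59 FPKM (0.714, 0.640 to 0.796). Mrps6, which pairs with an S18 protein in bacterial ribosomes, had 22.1 against 28.1 FPKM (0.786, 0.707 to 0.874). The lower genes were thus not the least abundant members, and they came from both subunits. Mrpl53 had 5.36 against 7.34 FPKM (0.731, 0.540 to 0.986), and 88.0% of its exon length is shared with other annotated genes, so its reads cannot be ascribed to it alone. Mrpl54 had 23.2 against 28.6 FPKM (0.811, 0.703 to 0.935), and Mrpl58, a peptidyl-tRNA hydrolase built into the large subunit, had 4.37 against 5.28 (0.827, 0.701 to 0.975).

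Within the structural parts of the ribosome the members differed in direction. At the rim of the peptide exit tunnel Mrpl22 and Mrpl45, which binds the inner membrane, were higher (Mrpl45 16.9 against 13.8 FPKM, ratio 1.23, 1.10 to 1.36), while Mrpl17 was lower. The others of this rim were within counting error, Mrpl23 at 2.48 against 2.16 FPKM, Mrpl24 at 22.2 against 20.7 and Mrpl47 at 4.19 against 3.57. The pooled ratio of the rim was 1.06 (1.01 to 1.11). The stalk that receives translation factors showed no difference beyond counting error, with Mrpl12 at 29.0 against 30.8 FPKM, Mrpl10 at 5.22 against 4.85 and Mrpl11 at 4.69 against 4.35 (pooled ratio 0.985, 0.911 to 1.07).

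In the central protuberance, which contacts the small subunit, Mrpl38 and Mrpl40 (26.8 against 23.0 FPKM) were higher beyond counting error. Mrpl18 (53.0 against 54.5 FPKM), Mrpl27 (39.1 against 38.0), Mrpl46 (22.7 against 20.9) and Mrpl48 (6.89 against 7.07) were within it. The 3 relatives of S18 occupy different places in the ribosome, and their ratios were 1.29 for Mrps18a, 1.52 for Mrps18b and 1.03 for Mrps18c (22.3 against 21.6 FPKM, 0.903 to 1.18).

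All members were detected in both libraries, and their median level was 7.85 FPKM with PRP and 7.64 in the control, above the 5.39 and 5.37 of all genes tested. Mean levels spanned from 1.42 FPKM for Mrpl4 (1.28 and 1.57) to 61.7 for Mrpl39. After Mrpl39 the highest were Mrpl18, Mrpl27, Mrpl41 (40.1 against 34.2), Mrps21 (35.3 against 38.3), Mrpl2, Mrpl52 (32.4 against 32.4), Mrpl12, Mrps33 (28.0 against 25) and Mrpl54. Of these 10, 8 belong to the large subunit, as do 51 of all 78. The proteins are short, with a median coding length of 582 bases against 1365 for protein-coding genes tested, from 195 for Mrpl33 to 1326 for Mrps30 (2.80 against 2.37 FPKM).

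The order by level depended on the length used. FPKM divides by all merged exons of a gene, which in the annotation were a median of 1.45 times as long as the transcript with the longest coding sequence, and over 3 times as long in 10 members. For Mrpl33 the factor was 15.3, as its merged exons cover 7326 bases and that transcript 478. Dividing the reads by that transcript instead put Mrpl33 at 80.6 and 69.9 RPKM in place of 5.26 and 4.56 FPKM, and moved it from place 57 to place 2. Mrpl52 came first, at 86.0 and 85.8 RPKM. These are levels that hold only if all reads came from that transcript. A change of at least 20 places was seen for 10 members, among them Mrps17 (from 73 to 34) and Mrps10 (from 55 to 14). Ratios between the libraries do not depend on the length, but the log2 fold change does, through the 1 added to FPKM.

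**Figure D3:**
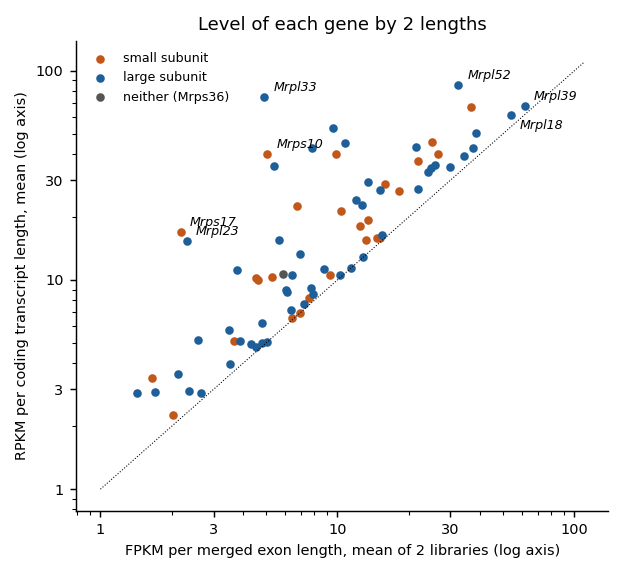
Level of each of the 78 genes, mean of the 2 libraries, as FPKM per merged exon length (x axis) and as RPKM per length of its main coding transcript (y axis), both log axes, with subunits in colours. The dotted line marks equal values, and Mrpl33, Mrps10, Mrps17 and Mrpl23 lie far above it, while Mrpl39 lies close to it.

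The members were also divided by level and by length. Members with a mean FPKM under 5 had a median log2 fold change of 0.12 (22 genes, 14 higher). The median was also 0.12 from 5 to under 15 (35 genes, 28 higher) and 0.08 at 15 or more (21 genes, 14 higher). All genes in these ranges had medians of 0.01, and 50.7%, 50.8% and 51.3% of them were higher. By merged exon length the medians were 0.04 under 1500 bases (20 genes), 0.10 from 1500 to under 3000 (27 genes) and 0.13 at 3000 or more (31 genes). All genes of these lengths had 0.04, 0.02 and -0.01. Higher were 13, 19 and 24 members of these lengths, against 53.8%, 53.3% and 48.4% of all genes. Among the shortest genes the median of the members thus lay close to that of all genes of their length.

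The rRNAs and mRNAs that these proteins work with differed in opposite directions. The mitochondrial rRNAs, which form the core of the particle, were listed higher in the PRP library. The small rRNA mt-Rnr1 had 191 against 134 FPKM (ratio 1.42, 1.35 to 1.5) and the large rRNA mt-Rnr2 had 139 against 129 (1.08, 1.03 to 1.13). Libraries made for mRNA hold what is left of rRNA, so these levels depend on the selection step. All 13 mitochondrial mRNAs were lower, with a median log2 fold change of -0.86, and 12 were lower beyond counting error. The extremes were mt-Nd4l (1004 against 2049.8 FPKM, ratio 0.490, 0.474 to 0.505), mt-Atp6 (6.92 against 14.3) and mt-Nd1 (822 against 1584). Levels between these genes are not comparable, as the neighbours mt-Co2, mt-Atp8, mt-Atp6 and mt-Co3 were at only 2.20 to 23.1 FPKM, a feature noticed after the values were seen. Of all FPKM summed, genes of mitochondrial DNA made up 2.06% with PRP and 3.70% in the control.

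**Figure D4:**
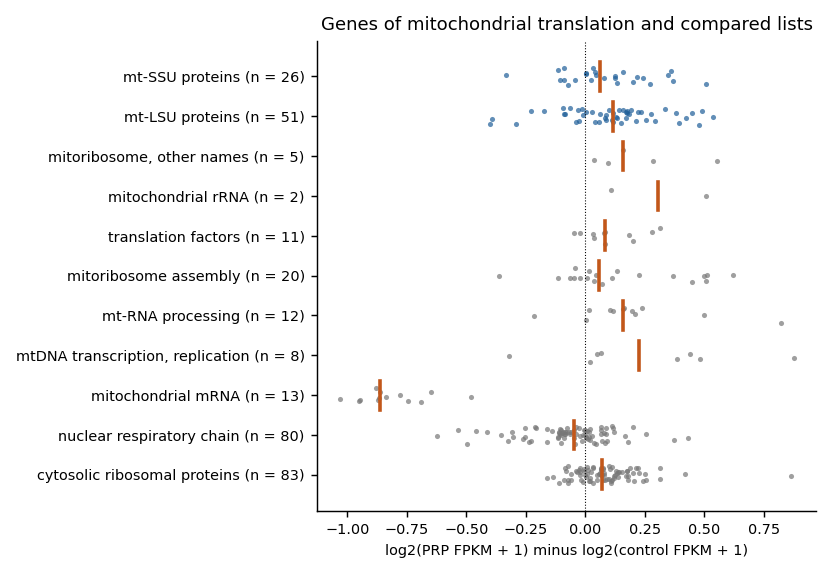
Log2 fold change (x axis) of each tested gene in the small (mt-SSU) and large (mt-LSU) mitoribosome subunits, in blue, and in 9 lists compared with them, in grey. Orange bars are the medians, and vertical scatter within a list only separates the points. The mitochondrial mRNAs lie apart on the left at a median of -0.86, while the mitoribosome lists lie at 0.06 and 0.12.

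The mitoribosome also holds 5 proteins that carry other names, and all were above 0. Chchd1, of the small subunit, had 48.3 against 32.6 FPKM (ratio 1.48, 1.33 to 1.66), and Ptcd3, a pentatricopeptide protein of the small subunit, had 8.92 against 7.15, with an interval of the ratio from 1.14 to 1.36. Gadd45gip1 had 14.5 against 12.9 FPKM (1.12, 1.01 to 1.26). Dap3, a GTP-binding protein of the small subunit, had 4.31 against 3.98 and Aurkaip1 had 15.2 against 14.8, both within counting error. The median of the 5 was 0.16.

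Of 24 genes for assembly of the mitoribosome and modification of its rRNA, 20 passed the level filter, 14 higher and 6 lower, with a median of 0.06. Leading them were Mrm3, a methyltransferase of the large rRNA, with 7.47 against 4.51 FPKM (1.66, 1.35 to 2.03), and the assembly GTPases Gtpbp10 (2.97 against 1.78, ratio 1.67) and Noa1 (4.74 against 3.04, ratio 1.56). Upward 6 of the 20 were past 0.32 and downward 1. Among 11 translation factors 9 were higher and 2 lower, with a median of 0.08 and none past 0.32. The largest differences were those of the release factor gene Mtrf1 (3.32 against 2.48 FPKM), of Tsfm, the exchange factor of the elongation factor Tu (4.12 against 3.22), and of the rescue factor gene Mtrfr (7.44 against 6.34).

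The enzymes that process mitochondrial transcripts were also mostly above 0, 11 of 12 tested, with a median of 0.16. Trmt10c, a subunit of mitochondrial RNase P, had 23.1 against 12.6 FPKM (1.83, 1.67 to 2.01), the exoribonuclease gene Pnpt1 had 13.4 against 9.20 (1.46, 1.31 to 1.62), and the tRNA 3′ processing gene Elac2 had 9.08 against 7.55 (1.20, 1.06 to 1.36). For transcription and replication of mitochondrial DNA 7 of 8 tested genes were higher, with a median of 0.23. The topoisomerase gene Top1mt had 13.6 against 6.97 FPKM (1.95, 1.68 to 2.28), the elongation factor gene Tefm had 5.08 against 3.36 (1.51, 1.16 to 1.98) and the helicase gene Twnk had 21.2 against 15.4 (1.38, 1.28 to 1.49). The exception was the transcription factor gene Tfb2m, which was lower at 2.94 against 3.93 FPKM (0.749, 0.604 to 0.928).

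Of the regulators tested, 5 of 7 were above 0. Myc had 10.4 against 5.83 FPKM (1.79, 1.54 to 2.07), Gabpb1 2.07 against 1.55 (1.34, 1.12 to 1.60) and Yy1 18.5 against 15.9 (1.16, 1.09 to 1.24). Picked afterwards for the motifs searched, Nrf1 had 2.14 against 2.22 FPKM, within counting error, and Gabpa 12.6 against 14.2 (0.884, 0.821 to 0.953). The coactivator genes Ppargc1a and Ppargc1b were under the level filter. By contrast, of 80 nuclear genes of the respiratory chain 30 were higher and 50 lower, with a median of -0.05 and a pooled read ratio of 0.960 (0.953 to 0.968). The largest differences there were Cox4i2 (0.664 against 1.56 FPKM), Sdha, the catalytic subunit of succinate dehydrogenase (32.1 against 47.0), and Ndufb11 (10.2 against 14.7). The 83 cytosolic ribosomal protein genes had a median of 0.07, with 61 higher and 22 lower. Rps29 had 27.8 against 20.5 FPKM, and the differences of Rpl32l (1.62 against 0.440) and Rps4l (15.2 against 12.1) are uncertain because these copies can share reads with their parent genes.

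Mitoribosome genes often had a close neighbour that is read in the other direction. A protein-coding gene on the opposite strand started within 1000 bases for 33 of the 78 members (42.3%), against 10.8% of all protein-coding genes and 17.7% of those tested. Mrps11 and Mrpl46 are each other's neighbour, which leaves 32 pairs. In 29 of these both genes passed the level filter, and 17 of the 29 pairs had the same sign. The neighbours had a median log2 fold change of 0.02, with 18 of 29 above 0. Ppp1r10, whose start lies 45 bases from that of Mrps18b, was higher with it, at 13.2 against 7.93 FPKM (ratio 1.66, 1.52 to 1.81). Next to other members past 0.32 the neighbour differed little, with Klc4 beside Mrpl2 at 11.6 against 12.9 FPKM, Ska3 beside Mrpl57 at 2.46 against 2.62 and Ighmbp2 beside Mrpl21 at 2.21 against 2.05. Tcp1, which overlaps Mrpl18, was lower, at 64.0 against 78.4 FPKM (0.817, 0.789 to 0.845). Mrpl18 was within counting error (0.973, 0.903 to 1.05). Chosen after their values were seen, Mitd1 beside Mrpl30 had 24.3 against 15.8 FPKM and Eme2 beside Mrps34 had 1.85 against 3.10, and both members were within counting error.

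**Figure D5:**
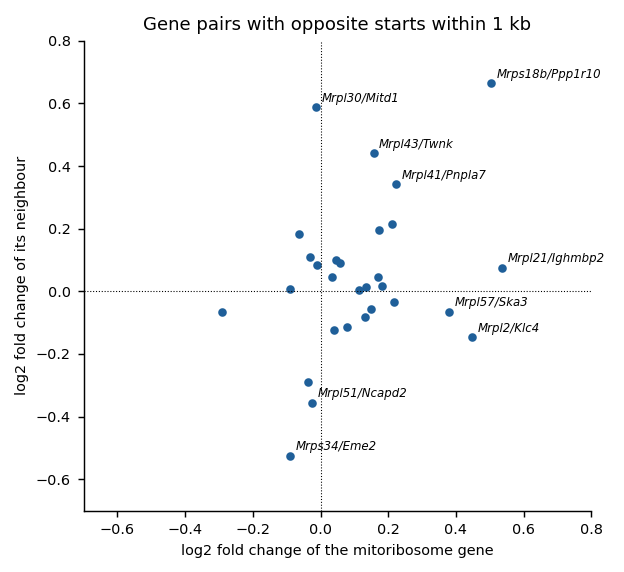
Log2 fold change of the mitoribosome gene (x axis) and of its opposite-strand neighbour with a start within 1000 bases (y axis), for the 29 pairs with both genes tested. Labels name the pairs with a value beyond 0.3 on either axis. The points lie on either side of both zero lines, with Mrps18b and Ppp1r10 at the top right and 17 pairs on the same side of 0 for both genes.

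Across the genome 11 members lay on chromosome 11 (14.1%, against 7.44% of protein-coding genes) and 8 lay on chromosome 17 (10.3%, against 4.79%). No exon base was shared with another gene in 45 members, and at least 50% of the exon length was shared in 3, Mrpl53 (88.0%), Mrps34 (77.8%) and Mrps25 (69.8%). Mrps34 had 4.38 against 4.73 FPKM and Mrps25 14.3 against 15.1, both within counting error. The labels name a stranded kit, but whether strand was used in counting is not given, so reads of opposite-strand partners may be mixed. The 5 pseudogene entries that were left out are copies whose reads may come from the parent genes. Mrpl23-ps1 was listed at 8.34 against 8.08 FPKM, from 194 and 160 reads, while Mrpl23 itself had 486 and 360 reads, 2.48 against 2.16 FPKM and, per transcript length, 16.5 against 14.3 RPKM. The other 4 were between 0.190 and 1.23 FPKM.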

How the data were processed

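RNA of both cultures was extracted with TRIzol and made into stranded mRNA libraries. Per the submitters' processing notes, fastp 0.23.4, STAR 2.5.3a and featureCounts were used with mm10. The deposited values are FPKM per gene, as computed by the authors. How counts became FPKM, and the annotation release, are not given in the sources used here. Gene models came from GENCODE M21 (GRCm38), which held 41492 of the 44291 genes (93.7%).

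FPKM with M21 exon lengths gave whole reads, within 0.001, in both libraries for all 78 members and 12369 of 13401 genes tested (mean FPKM of at least 1). Of genes with up to 8 reads 79.3% (PRP) and 80.3% (control) had even numbers, so intervals used reads divided by 2. They take no account of PCR duplicates. The log2 scale used a pseudocount of 1 on FPKM, and no count model was run.

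The members, the lists of genes and the rule for naming genes (highest levels, highest and lowest changes, small structural groups, and the 3 largest changes of each compared list) were chosen with earlier results of these data known. Lists came from general knowledge of the pathways and supply no independent evidence. Python 3.11.15, NumPy 2.4.6, pandas 2.3.3, SciPy 1.17.1 and matplotlib 3.10.9 were used. The interval procedure was tested on simulated data for PRP against control, with independent Poisson reads that were not divided by 2. There 95.5% of intervals over 13072 genes held the true ratio. The simulation held no read pairs or duplicates, so it does not test the division by 2 used for the real libraries. Alternatives were other pseudocounts, level filters, scalings and fold thresholds, and leaving out members with shared exons. The order by transcript length and the ranges of level and length were added after seeing the data.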

Additional observations from a re-analysis of the deposited data

How the results depend on the processing

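No paired analysis was possible because only 1 library stands for each treatment. No leave-one-out fit was possible either. Neither the median of the members nor any called member changed sign under an alternative. The median of the members was 0.067 with a pseudocount of 5 and 0.085 when rescaled without mitochondrial genes and the 50 most abundant genes, a scaling that took the median of all genes from 0.01 to -0.02. It was 0.077 for members with a mean FPKM of 15 or more and 0.043 for members with merged exons under 1500 bases. With a pseudocount of 5, 5 members were past 0.32 upward and 0 downward, and with fold thresholds of 1.5 and 2 there were 0 in either direction. At a filter of 5 on mean FPKM, 14 of the 56 members left were lower, as fewer were tested. That rescaling left 51 higher and 27 lower, and centring gave 53 and 25. Intervals above and below no change numbered 33 and 7 on undivided reads, against 25 and 6 in the main setting. They numbered 23 and 6 after centring, 22 and 6 when rescaled to a common sum, and 20 and 7 when rescaled without mitochondrial and top genes. By gene, 77 or all 78 members stayed within their interval under each setting, with Mrpl17 (-0.24) beyond it at a pseudocount of 5. Between a pseudocount of 5 and a mean FPKM filter of 5, the median of the mitochondrial DNA list ranged from 0.14 to 0.39 (5 genes left) and that of assembly genes from 0.02 to 0.24 (4 genes left). Without replicates, variation between cultures is unknown.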
